A study of Saccharomyces cerevisiae with 42 samples.

Results

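The genes described here are 67 nuclear genes of Saccharomyces cerevisiae, of 7127 annotated genes in the count tables, whose standard symbol begins with MRPL, MRPS or RSM or is MRP followed by digits only. Of them, 28 encode proteins of the small subunit of the mitochondrial ribosome and 38 encode proteins of the large subunit. The subunit follows the family name in the RefSeq annotation, except for RSM22, which has none and was counted as small. The remaining gene, MRP8 (YKL142W), carries such a symbol but is annotated as a protein of unknown function. RNA was measured by stranded, polyA-selected RNA-seq in 42 libraries of BY4742, a haploid wild-type laboratory strain (genotype given as his3Δ1 leu2Δ0 met15Δ0 ura3Δ0) grown at 30 C in rich glucose medium (YPD). After dilution and a first period of growth the cells gave 24 libraries at 0 h, and cultures kept growing without further treatment gave 6 libraries each at 2, 4 and 6 h.

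The mitochondrial ribosome, or mitoribosome, translates the few mRNAs of the mitochondrial genome, most of which encode core subunits of the respiratory chain and the ATP synthase. Apart from Var1, its proteins are encoded in the nucleus, translated in the cytosol and imported. Many mRNAs for these proteins carry, after their stop codon, a binding site of Puf3, a Pumilio-family RNA-binding protein known to promote the decay of its target mRNAs in cells growing on glucose. Family names in the text (uS17m, bL31m, mL40) give the subunit as S or L, and their first letter tells whether the family is found in all ribosomes (u), is shared with bacteria (b) or is specific to mitochondria (m). VAR1 (Q0140) had 0 counts in every library, which allows up to 3 counts in a library, and is not considered further.

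Total counts ranged from 4339150 to 31908031 per library (median 12150379), and libraries of a time point differed by more than sampling noise. The libraries fell into 2 sets that did not follow time. Regressing log2 counts scaled to library size on log2 gene length gave a slope between -0.0783 and 0.1892 in 10 libraries, called flat, and between 0.3746 and 0.6128 in 32, called steep. Of the 10 flat libraries 7 belong to 0 h, 1 to 2 h and 2 to 6 h, and 4 h has 0. The mitoribosomal genes are short, with a median length of 699 bases against 1332 over the 4789 tested genes, so results are also given with the set as a term in the fit and within the steep set. The headers of 18 of the 24 count files labelled 0 h name another treatment (35C, 10C or Na200); all 24 were used as 0 h, as labelled. Of the genes named in the genotype, LEU2 and URA3 had at most 1 count in any library, HIS3 had 153 to 4693 and MET15 902 to 9494, while LYS2, which it does not name, had at most 1.

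A feature that the choice by symbol did not use was the sequence after the stop codon. The letters TGTANATA, the core of the Puf3 site, occurred on the coding strand within 200 bases after the stop codon in 65 of the 67 genes (97.0%), against 844 of 5989 nuclear protein-coding genes (14.1%). The 2 genes without a match were MRP8 and RSM22, which has no ribosomal protein family name, so all 65 genes with a family name had one. The cytosolic ribosomal protein genes, taken by symbol (RPL, RPS or RPP before a digit), had a match in 6 of 138 (4.35%). The match was not particular to the 67 genes. It was found in 14 of 14 mitoribosomal proteins with other symbols and in 13 of 13 mitochondrial aminoacyl-tRNA synthetases. It was also found in 9 of 11 genes listed as translation factors, 10 of 14 translational activators, 5 of 7 assembly and rRNA modification genes and 3 of 5 genes of mitochondrial transcription and RNA turnover. On the opposite strand of the same windows the letters were found in 13 of the 67 genes (19.4%) and in 13.2% of all genes. Sequences of 24 bases around the match are shown in the sense of the mRNA, with the match in capitals, for the 6 genes with the largest rise at 6 h and for 4 whose rise did not pass the test.
MRPS17 (chrXIII:636220-636243, minus strand): ctacactcTGTAAATAtatacaac
RSM19, nearest of 3 (chrXIV:695027-695050, minus strand): ggatctagTGTATATAgatttcta
RSM19, next (chrXIV:694999-695022, minus strand): atatatcaTGTAAATAagatcaag
RSM19, farthest (chrXIV:694971-694994, minus strand): actcgggcTGTATATAtatatata
MRP20 (chrIV:1278502-1278525, plus strand): ctcacactTGTATATAcggagcaa
MRPL28, nearest of 2 (chrIV:1386540-1386563, plus strand): tctcctgcTGTAAATAactgatga
MRPS12 (chrXIV:694272-694295, minus strand): caacctttTGTAAATAgcaatgac
MRPS18 (chrXIV:58863-58886, plus strand): tatattcgTGTAAATAattcgatt
MRPL1, nearest of 2 (chrIV:682671-682694, minus strand): tttttaatTGTATATAtatatata
MRPL9 (chrVII:936026-936049, minus strand): tacaatcaTGTACATAcatcaata
MRPL33, nearest of 2 (chrXIII:842252-842275, plus strand): cttatataTGTATATAgtattatt
MRPS8 (chrXIII:572764-572787, plus strand): acggaccaTGTAAATAataatatt

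Coordinates are those of build R64. One match was present in 52 genes, 2 in 12 genes and 3 in RSM19 alone. The nearest match began between 8 and 139 bases after the stop codon, with a median of 51. Of the 79 matches in the mitoribosomal genes, 86.1% began 20 to 100 bases after the stop codon, against 61.1% of the 844 matches in other genes. A C stood 2 bases before the match in 52 of 79 (65.8%), as in MRP20 and MRPL9 above, and in 204 of 835 (24.4%) in other genes, counted where the match began at least 2 bases into the window. The variable base (N) was A in 45.6% and G in 1.27% of the matches in mitoribosomal genes, and A in 26.5% and G in 6.4% elsewhere. A match is a description of the sequence and not a test of binding.

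**Figure D1:**
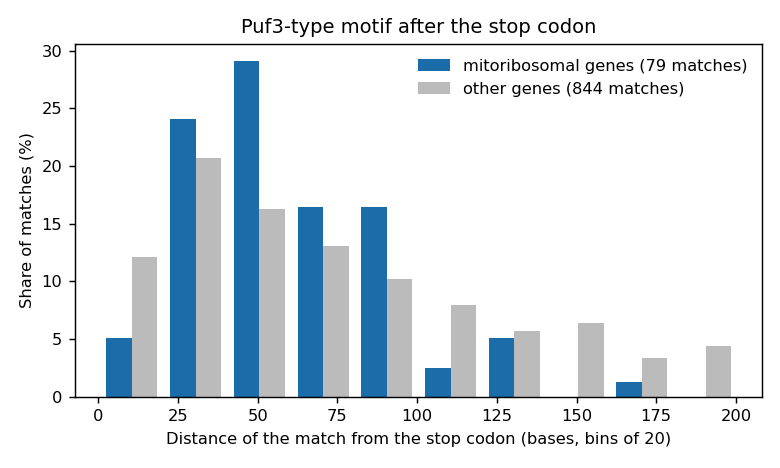
Share of matches to the Puf3-type motif (y axis, percent) by distance from the stop codon (x axis, bases, in bins of 20), for 79 matches in 65 mitoribosomal genes (blue) and 844 matches in other protein-coding genes (grey). The blue bars are highest between 41 and 60 bases, with 29.1% of the matches, and only 1.27% lie beyond 140 bases.

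Promoter letters gave no such contrast. In the window from 250 bases before to 50 bases after the start codon, on either strand, CCAAT (the core bound by the Hap complex, which activates respiratory genes) occurred in 28 of 67 genes (41.8%) against 43.3% of all genes. AATTTT occurred in 41.8% against 51.7%, AGGGG (the core of the stress response element) in 16.4% against 21.6%, TGACTC (the Gcn4 core) in 1.49% against 7.98%, and CGGGTAA (the Reb1 core) in 10 of 67 genes (14.9%) against 7.10%. These 5 motifs were the ones searched, none of them contains another, and they were chosen with results known.

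At 0 h the mitoribosomal mRNAs were expressed within a narrow range. Levels are given as reads per kilobase of gene, scaled to library size (RPKM), and the mean over 24 libraries lay between 41.4 and 220.6 RPKM, a ratio of 5.33, around a median gene of 84.9. The median was 86.4 RPKM for small-subunit and 83.3 for large-subunit genes, against 62.8 over all tested genes and 1290 over the cytosolic ribosomal protein genes. The highest small-subunit genes were MRPS16 (bS16m) at 220.6 ± 100.5 RPKM (SD, n = 24), MRPS12 (uS12m, at the decoding centre) at 220 ± 72.4 and MRP10 (mS37) at 175 ± 37.1. The lowest were RSM22, which resembles rRNA methyltransferases, at 41.4 ± 7.06 RPKM, RSM23 (mS29, a GTP-binding protein) at 56.8 ± 9.68 and RSM25 (mS23) at 57.8 ± 16.2. Within each of these triplets the means lay within the spread between libraries of their neighbours, except for RSM22.

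Among large-subunit genes, the highest were MRPL33 (uL30m) at 191 ± 86.5 RPKM, MRPL36 (bL31m) at 154 ± 30.1 and MRPL39 (bL33m) at 148 ± 30.7. The lowest were MRPL24 (bL28m) at 48.0 ± 5.22, MRP35 (bL35m) at 49.4 ± 8.70 and MRPL19 (uL11m, at the base of the stalk) at 56.4 ± 13.1. MRPL19 overlaps the annotated gene YNL184C on the same strand, where reads in the overlap were not counted, so its level is uncertain. MRP35 (YNL122C), with 67 counts in its lowest library, was the only one of the 67 genes under the minimum of 75 counts in every library, and the tests cover the other 66.

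The mitoribosomal mRNAs were higher at 6 h, the last time point. By the quasi-likelihood test of edgeR, with p adjusted over all 4789 genes after Benjamini and Hochberg, 58 of the 66 genes rose and 0 fell between 0 h and 6 h at an adjusted p under 0.05. Over all tested genes 24.9% were higher and 19.6% were lower. The median log2 change was 0.47, against 0.02 over all tested genes, and the log2 change was above 0 in all 66, from 0.17 to 0.99. At an unadjusted p under 0.05, 59 genes were higher and 0 lower, and DESeq2 called 56 higher and 0 lower (24.2% and 22.3% of all tested genes). The 67 genes together took 0.324 to 0.451% of all counts at 0 h (median 0.384%, 24 libraries) and 0.478 to 0.717% at 6 h (median 0.547%, 6 libraries), so that the groups did not overlap. These are relative amounts, and more of these mRNAs per cell cannot be told apart from less of the other mRNAs.

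**Figure D2:**
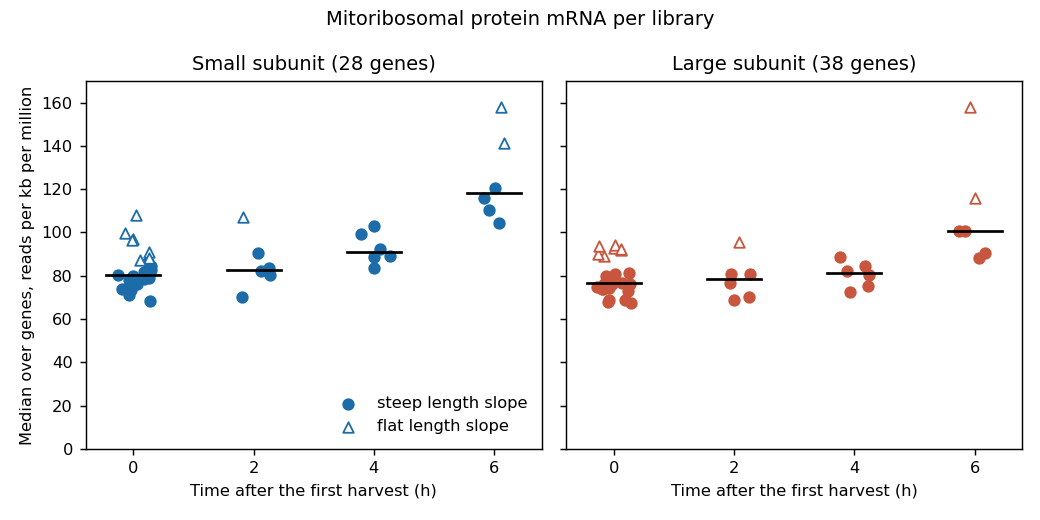
Median RPKM over the 28 small-subunit genes (left) and the 38 large-subunit genes (right) in each of the 42 libraries (y axis) by time (x axis, h). Filled circles are steep and open triangles flat libraries, and the bar is the median of the time point. Flat libraries lie above the steep ones at 0 h, and within each set the 6 h libraries lie above the 0 h libraries, at 104 RPKM or more in the small subunit against at most 86.4 in steep libraries at 0 h.

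The largest rise was that of MRPS17 (YMR188C, uS17m, chromosome XIII, 636291 to 637004), a protein that binds the body of the small-subunit rRNA. Its level was 46.6 to 92.8 RPKM at 0 h (median 68.8, 24 libraries), with a range of 53.3 to 95.8 at 2 h (median 67.1), 65.9 to 112 at 4 h (median 87.5) and 124 to 154 at 6 h (median 134). Every 6 h library was above every 0 h library, and the 6 h values did not separate flat from steep libraries. The log2 change at 6 h was 0.99 (standard error 0.11, edgeR adjusted p = 5.73e-10). It was 0.98 with the set as a term and 1.01 within the steep set.

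RSM19 (YNR037C, uS19m, chromosome XIV, 695052 to 695327), a protein of the small-subunit head with 3 motif matches, had the next rise, with a log2 change of 0.94 (standard error 0.24, edgeR adjusted p = 0.0017). Its levels at 6 h were 95.9 to 459 RPKM (median 144), with the highest value in replicate 2, and those at 0 h were 60.4 to 209 (median 87.6). Without 6 h replicate 2 its log2 change was 0.49 with an adjusted p of 0.0848 in edgeR, while within the steep set it was 0.67 with an adjusted p of 7.94e-05. The neighbouring gene on the same strand of chromosome XIV, MRPS12 (YNR036C, 694361 to 694822), had the same features of a wide spread and a highest value in 6 h replicate 2. Its levels were 161.2 to 463 RPKM at 0 h (median 194) and 192 to 857 at 6 h (median 293), so that the groups overlapped. The log2 change was 0.76 (edgeR adjusted p = 0.00127), 0.33 without 6 h replicate 2 (adjusted p = 0.114) and 0.46 within the steep set (adjusted p = 8.96e-05).

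MRP20 (YDR405W, uL23m, chromosome IV, 1277646 to 1278437), which lies at the exit of the polypeptide tunnel, had a log2 change of 0.88 (standard error 0.35, edgeR adjusted p = 0.0373). Of all 66 genes it differed most between the library sets. At 0 h it was at 47.8 to 81.01 RPKM in the 17 steep libraries and at 158 to 264 in the 7 flat ones. At 6 h it was at 93.2 to 123 in the 4 steep and at 297 and 457 in the 2 flat libraries, so that the times did not overlap in either set. The log2 change within the steep set was 0.78 (adjusted p = 1.6e-05). Over all libraries it was 0.44 without 6 h replicate 2 and no longer passed (adjusted p = 0.324), and 0.73 without 6 h replicate 4 (adjusted p = 0.118).

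MRPL28 (YDR462W, mL40, chromosome IV, 1386073 to 1386516), a large-subunit protein without a bacterial counterpart, rose by 0.78 on the log2 scale (edgeR adjusted p = 0.000499) from a median of 77.3 to one of 124 RPKM. MRPS18 (YNL306W, uS11m, chromosome XIV, 58155 to 58808) rose by 0.76 (adjusted p = 5.71e-05) from a median of 118 to one of 176 RPKM. Both kept an adjusted p under 0.05 without 6 h replicate 2, at log2 changes of 0.48 and 0.43. In MRPS18 the steep libraries did not overlap between 0 h (94.3 to 128 RPKM) and 6 h (145 to 180), whereas MRPL28, at 62.3 to 91.6 and 91.4 to 128, overlapped narrowly.

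**Figure D3:**
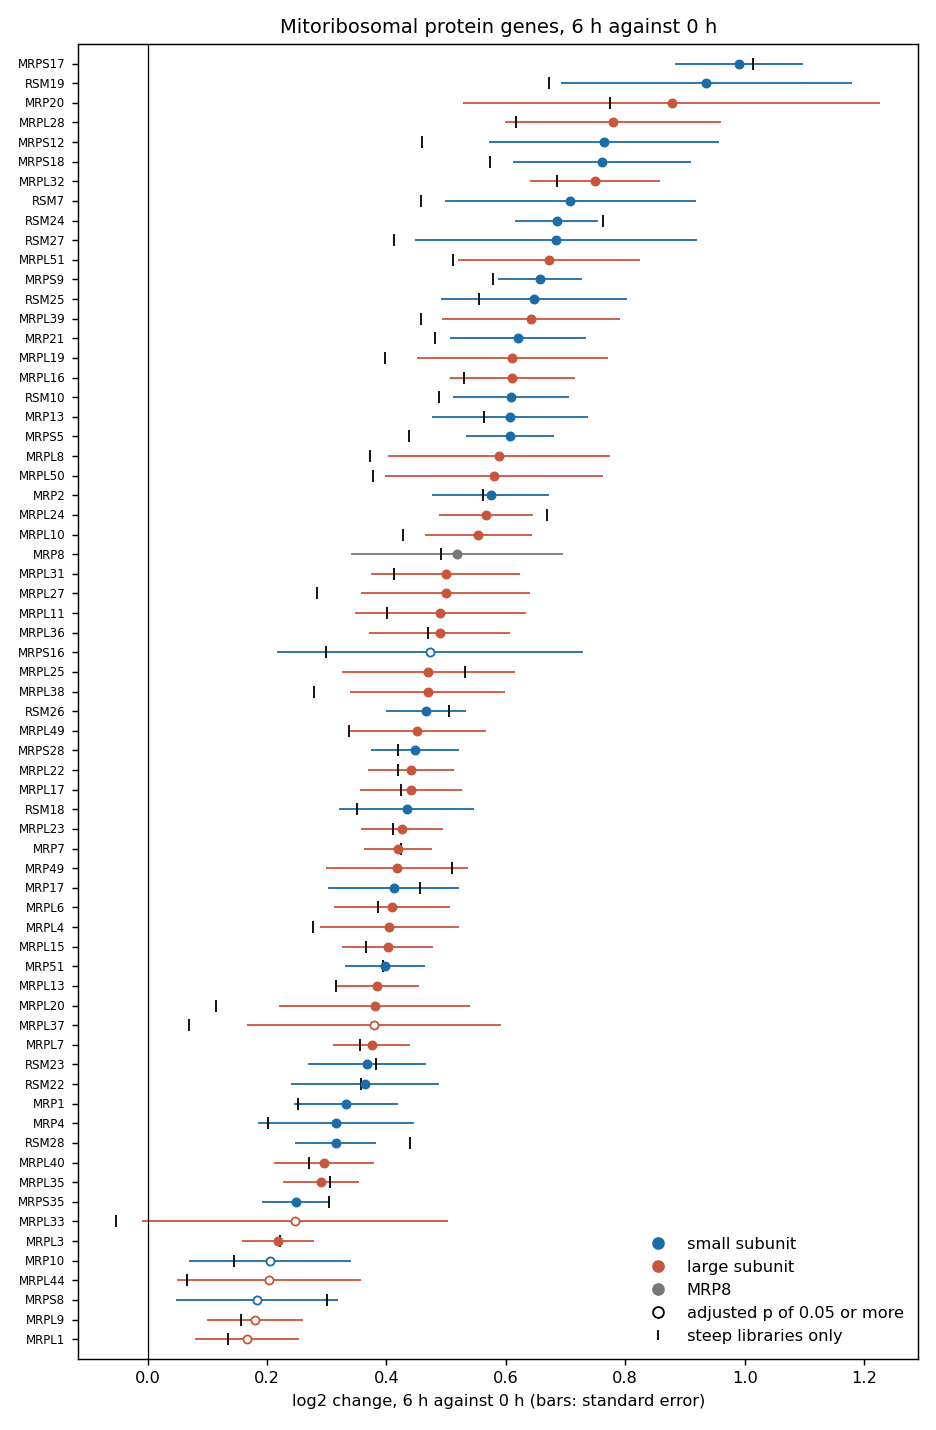
Log2 change at 6 h against 0 h (x axis) of the 66 tested genes, 1 per line, with the standard error, in blue for the small subunit, red for the large subunit and grey for MRP8. Open points did not pass an adjusted p of 0.05, and the black tick is the value within the steep libraries. All points lie right of 0, from 0.17 to 0.99, and the tick of MRPL33, at -0.05, is the only one left of it.

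The 8 genes that did not pass at 6 h came from both subunits. They were MRPL1 (uL1m), MRPL9 (uL3m), MRPL33, MRPL37 (mL54), MRPL44 (mL53), MRPS8 (uS8m), MRPS16 and MRP10, named as the whole remainder and not by a rule. MRPL1 had the smallest log2 change, 0.17 (standard error 0.09, edgeR adjusted p = 0.115), with levels of 68.1 to 103 RPKM at 0 h (median 88.7) and 79.1 to 109 at 6 h (median 97.0). With only the 6 libraries at 0 h whose file numbers run on to the later ones, its log2 change was 0.33 and it passed (adjusted p = 0.0397), and MRPL3 had the smallest change (0.21). In that fit 47 genes rose at 6 h, 46 of them among the 58 called over all libraries. The share of all tested genes higher in that fit is not given here, so the 47 are not compared with it. Among the calls lost were those of MRP20 (edgeR adjusted p = 0.0911) and MRPS12 (0.0834). With scaling to library totals the log2 change of MRPL1 was 0.25 and it also passed (adjusted p = 0.0134), as did MRPL9, MRPS16 and MRPL37. MRPL33 stood out for its spread. It was at 115 to 452 RPKM at 0 h (median 148) and at 127 to 580 at 6 h (median 146), where the 4 steep libraries held 127 to 151 and the flat ones 233 and 580. Its log2 change was 0.25 over all libraries (adjusted p = 0.453), -0.29 without 6 h replicate 2 (adjusted p = 0.325) and -0.05 within the steep set (adjusted p = 0.613). For MRPS16 the log2 change was 0.47 with an adjusted p of 0.129, and it passed within the steep set, where it was 0.30 (adjusted p = 0.0082). In the steep set 59 of 66 genes were higher, and the 7 that missed the threshold were 6 of these 8 (all but MRPS8 and MRPS16) and MRPL20.

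The rise at 6 h was found in both library sets. With the set as a term, 60 of 66 genes rose and 0 fell (32.7% of all tested genes higher and 30.3% lower), with a median log2 change of 0.44. In the steep set, 59 rose and 0 fell (31.2% of all genes higher and 29.2% lower), with a median of 0.41. Over all libraries, 6 genes had every 6 h library above every 0 h library: MRPS17, MRPS5 (uS5m), MRPS9 (uS9m), RSM24 (mS35), MRPL23 (uL13m) and MRPL32 (bL32m). Such a lack of overlap was seen in 2.67% of all tested genes. Within the steep set (4 against 17 libraries) it was seen in 29 of 66 genes against 8.96% of all genes, and within the flat set (2 against 7) in 40 of 66 against 16.3%. Leaving out 6 h replicate 2 gave 43 higher genes, all of them among the 58, with a median of 0.36 (24.5% of all tested genes higher).

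Both subunits rose. Of 28 small-subunit genes 25 were higher, with a median log2 change of 0.52, and of 37 large-subunit genes 32 were higher, with a median of 0.44. MRP8 also rose, with a log2 change of 0.52 (edgeR adjusted p = 0.0159), from a median of 117 to one of 177 RPKM. The medians of the subunits differed by 0.08, which was between 0.04 and 0.14 under the alternatives tried. Per library, the mean log2 RPKM of the small minus the large subunit was -0.003 to 0.161 at 0 h (median 0.0715), 0.057 to 0.147 at 2 h (median 0.125), 0.113 to 0.154 at 4 h (median 0.138) and 0.037 to 0.201 at 6 h (median 0.1535). All times overlapped with 0 h in this measure. Within the steep set it was 0.024 to 0.161 at 0 h (median 0.076, 17 libraries) and 0.152 to 0.201 at 6 h (median 0.1535, 4 libraries), a narrow overlap. Within the flat set it was -0.003 to 0.097 at 0 h (7 libraries) and 0.037 and 0.197 at 6 h (2 libraries).

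By evolutionary origin, 35 of 40 tested genes of families shared with bacteria rose, with a median log2 change of 0.49, and 21 of 24 of mitochondrial families, with a median of 0.41. The widest gap was in the small subunit, where the 17 bacterial-type genes had a median of 0.61 and the 10 mitochondrial ones 0.42, while in the large subunit the medians were 0.47 (23 genes) and 0.41 (14 genes). Within the steep set the small-subunit medians were 0.46 and 0.43. Of the 13 tested genes with 2 or more Puf3-type matches 10 rose, with a median of 0.49, and of the 51 with 1 match 46 rose, with a median of 0.45. Within the steep set the order of the medians was reversed (0.40 and 0.41), and RSM22 and MRP8, with none, both rose. With 6 libraries at 0 h neither RSM22 nor MRP8 passed (edgeR adjusted p = 0.09 and 0.0522). Over all libraries RSM22 did not pass without 6 h replicate 3 (0.07), and MRP8 did not without 6 h replicate 4 (0.0817) or 5 (0.0512). Among genes not chosen by symbol, 229 of 687 tested genes with a match were higher (33.3%) and 96 lower, with a median of 0.13, against 901 of 4000 without a match (22.5%) and a median of -0.01. Those with a match still include the 14 mitoribosomal proteins with other symbols and many other genes of mitochondrial translation.

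At 4 h the result depended on the libraries. Over all libraries 9 of 66 genes rose and 0 fell, where 17.7% of all tested genes were higher and 17.4% lower, and the median log2 change was 0.05. At an unadjusted p under 0.05, 12 were higher and 0 lower, and DESeq2 called 10 higher and 0 lower (18.2% and 20.6% of all tested genes). All 6 libraries at 4 h are steep, whereas 7 of 24 at 0 h are flat. With the set as a term 31 genes rose and 0 fell, with a median of 0.17 (20.7% of all tested genes higher and 19.0% lower). Within the steep set 37 rose and 0 fell, with a median of 0.17 (23.3% and 21.3%). In 0 of the 66 genes were all 4 h libraries above all 0 h libraries, against 1.21% of all tested genes (1.73% within the steep set).

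The genes called over all libraries at 4 h were RSM24, MRPS17, MRP49 (mL61), MRP2 (uS14m), MRPS9, MRPL22 (uL22m, which lines the exit tunnel), MRPS5, MRP7 (bL27m) and MRPL24. RSM24 (YDR175C, chromosome IV, 813193 to 814152) was at 60.97 to 89.3 RPKM at 0 h (median 72.7), 70.2 to 85.9 at 2 h (median 80.1), 83.7 to 107 at 4 h (median 91.03) and 94.5 to 137 at 6 h (median 120.9). Its log2 change was 0.30 at 4 h (edgeR adjusted p = 0.00122) and 0.69 at 6 h (adjusted p = 1.07e-10), and all 6 h libraries exceeded all 0 h libraries. MRPS9 (YBR146W, chromosome II, 535260 to 536096) was at 85.0 to 128 RPKM at 0 h (median 100), 108 to 132 at 4 h (median 122) and 144 to 210 at 6 h (median 148). It changed by 0.26 at 4 h (adjusted p = 0.0066) and by 0.66 at 6 h (adjusted p = 5.73e-10). The other values at 4 h were 0.35 for MRPS17 (adjusted p = 0.0152), 0.34 for MRP49 (0.0276), 0.27 for MRP2 (0.0329) and 0.25 for MRPL22 (0.00808). All of the 9 were also called with the set as a term and within the steep set. With 6 libraries at 0 h MRP2 alone passed (adjusted p = 0.0359, with 3.62% of all tested genes higher), and the other 8 had log2 changes of 0.20 to 0.46. Single libraries also ended calls over all libraries. MRPS17 did not pass without 4 h replicate 2 (adjusted p = 0.0551) or 3 (0.0761). MRP49 and MRP2 did not pass without 4 h replicate 1 (0.11 and 0.123), 2 (0.0542 and 0.0637) or 3 (0.0774 and 0.0629).

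**Figure D4:**
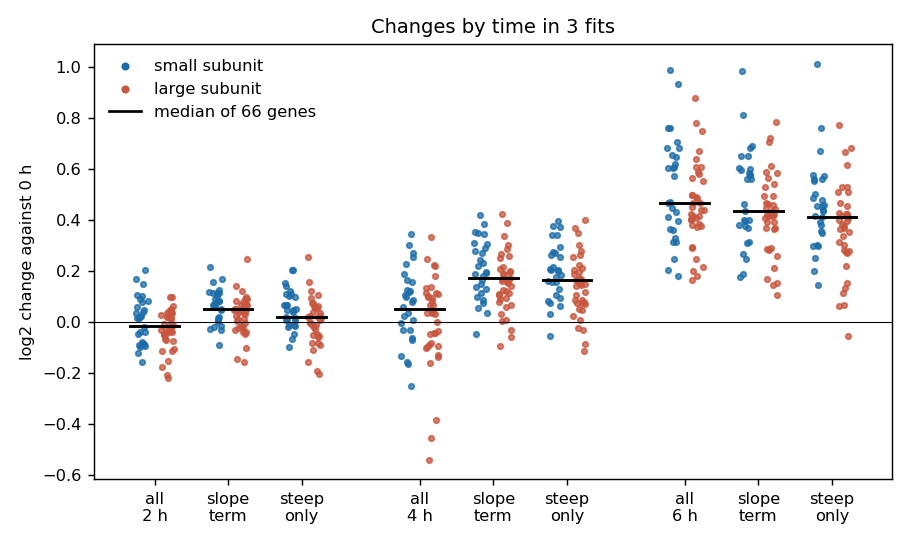
Log2 change against 0 h (y axis) of the 28 small-subunit (blue) and 37 large-subunit (red) genes at 2, 4 and 6 h, from all libraries, with the library set as a term, and from steep libraries only. The bar is the median of the 66 genes, which at 4 h lies at 0.05 over all libraries and at 0.17 in the other fits, and at 6 h between 0.41 and 0.47.

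At 2 h, 0 of 66 genes were higher and 0 lower in edgeR, with 1 at an unadjusted p under 0.05, and 0 in DESeq2. Over all tested genes edgeR called 0.0418% higher and 0.0418% lower, and DESeq2 0.23% and 0.167%. The median log2 change was -0.01, with values from -0.22 to 0.21. Between 2 h and 4 h, 1 gene rose, MRP7 (log2 change 0.25, edgeR adjusted p = 0.0391), and 0 fell (2.88% of all genes higher and 1.86% lower), with 8 at an unadjusted p under 0.05. The call of MRP7 was lost with 6 libraries at 0 h (adjusted p = 0.128) and with library totals (adjusted p = 0.127). It was also lost without any 1 of 2 h replicates 1, 2, 3, 4 and 6 and 4 h replicates 1, 4, 5 and 6, each of which left 0 genes called. With the set as a term 8 rose (8.42% of all genes higher). Between 4 h and 6 h, 19 genes rose and 0 fell (2.86% of all genes higher and 0.981% lower), with a median of 0.42. The count fell to 5 without 6 h replicate 2 (1.06% of all genes higher) and was 34 without 6 h replicate 6 and 13 within the steep set, where the median was 0.22 (2.99% of all genes higher and 3.34% lower). MRPL32 (YCR003W, chromosome III, 118620 to 119171) had the lowest adjusted p of this step, with levels of 64.1 to 81.9 RPKM at 4 h and 90.9 to 173 at 6 h and a log2 change of 0.71 (edgeR adjusted p = 0.00288).

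The difference between the library sets was measured within 0 h, where time does not enter. The mean log2 level of flat minus steep libraries had a median of 0.32 over the 66 genes and was above 0 in 59 of them, while the median over all tested genes was 0.00 and that over cytosolic ribosomal protein genes 0.81. It was highest for MRP20 (1.74), MRPS16 (1.17) and MRPL33 (1.08), and lowest for RSM23 (-0.34), RSM22 (-0.22) and MRPL25 (mL59, -0.13). Across genes it fell with log2 length, with Pearson's r of -0.67 and Spearman's rho of -0.71 over 4789 genes and -0.53 and -0.58 over the 66. The sets were defined by their slopes on gene length, so a fall was built in and these values only describe it. Genes are not independent, and all points come from the same 24 libraries. Across the 66 genes the log2 change at 4 h had r of -0.70 with this difference over all libraries and 0.18 with the set as a term, and the change at 6 h 0.36 and 0.19. These measures share the 0 h libraries.

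**Figure D5:**
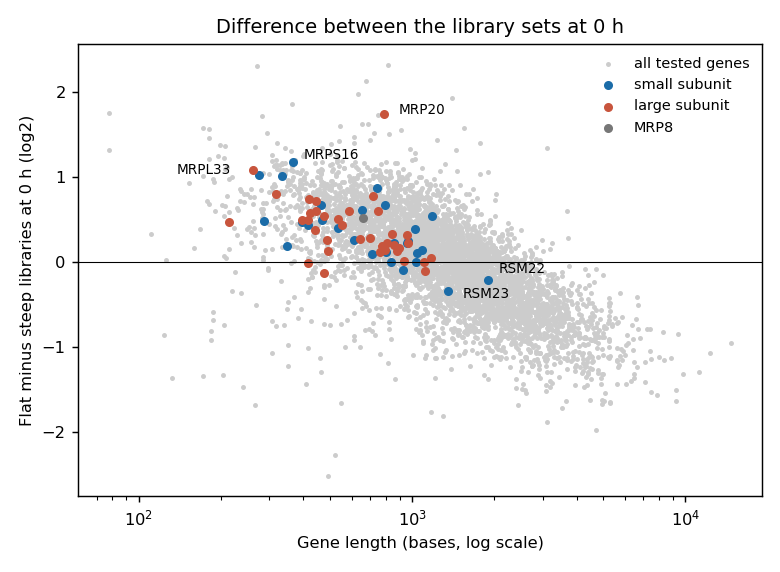
Mean log2 level in flat minus steep libraries at 0 h (y axis) against gene length (x axis, bases, log scale) for all 4789 tested genes (grey) and the 66 mitoribosomal genes (blue small subunit, red large subunit, dark grey MRP8). The coloured points run from 1.74 at MRP20 to -0.34 at RSM23, and most of the short genes lie above 0. The sets were defined by their slopes on gene length, so a fall with length is built in.

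The rest of the mitochondrial translation machinery was described from a list of 64 genes, of which 61 were tested. Of these, 44 rose and 0 fell at 6 h, with a median log2 change of 0.44, where 24.9% of all tested genes were higher. Among 14 mitoribosomal proteins with other symbols, 12 rose (median 0.50), led by YML6 (uL4m, log2 change 0.79, edgeR adjusted p = 4.53e-07), QRI5 (0.72, adjusted p = 0.00248) and RML2 (uL2m, 0.69, adjusted p = 2.18e-11), and all 14 had a Puf3-type match. Among 11 genes listed as translation factors 10 rose (median 0.56), led by TUF1, the elongation factor Tu (0.81, adjusted p = 2.66e-10), IFM1, an initiation factor (0.81, adjusted p = 3.97e-08), and GUF1 (0.80, adjusted p = 1.13e-06). This list also holds HER2, PET112 and GTF1, which encode subunits of a tRNA amidotransferase and are not translation factors.

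Of 13 mitochondrial aminoacyl-tRNA synthetases, which charge tRNAs in the organelle, 12 rose at 6 h (median 0.49), and DIA4, the seryl-tRNA synthetase, changed most (log2 change 1.28, edgeR adjusted p = 8.99e-18), followed by MSY1 (0.62, adjusted p = 1.87e-08) and SLM5 (0.62, adjusted p = 0.00439). At 4 h, where 17.7% of all tested genes were higher, 11 of these 13 were already called over all libraries, with a median of 0.38, beside 1 of the 14 other mitoribosomal proteins, with a median of 0.04; the difference between the lists was not tested. With the set as a term the counts were 11 and 4, and the medians 0.28 and 0.18. The counts at 6 h in the remaining lists are small and stand beside the same 24.9% over all genes. Of 7 assembly and rRNA modification genes 4 rose, with MRM1 at 0.59, GEP3 at 0.37 and MTG2 at 0.33. Of 11 tested translational activators, which act on single mitochondrial mRNAs, 4 rose, among them PET494 (0.86), MSS51 (0.58) and CBP3 (0.44). Of 5 genes of mitochondrial transcription and RNA turnover PET127 (0.43) and SUV3 (0.23) rose.

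Of the 138 cytosolic ribosomal protein genes 45 were lower and 1 higher at 6 h, with a median log2 change of -0.37, where 19.6% of all tested genes were lower, and 92 did not pass. With the set as a term 127 were lower and 1 higher, with a median of -0.42, where 30.3% of all genes were lower. The list was taken by symbol alone, so a gene of another function can be in it. Many of its genes occur as near-identical pairs, whose reads the counting could leave out. Within steep libraries their median level was 885 to 1220 RPKM at 0 h (17 libraries) and 658 to 932 at 6 h (4 libraries), and that of the 67 mitoribosomal genes was 68.2 to 85.1 and 91.8 to 108. The mitoribosomal values did not overlap between the times and the cytosolic ones did.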

How the data were processed

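The authors aligned the reads with STAR and counted them with featureCounts 2.0.3 (per the file headers) on the Ensembl annotation of R64-1-1, and deposited raw counts per library over whole genes and over exons, with no normalization. StringTie is also named in the submitters' processing notes. Counting was strand-specific, and reads with several alignments or in more than 1 gene of a strand were not counted. A ComBat-seq adjustment for batches of polyA selection is named in the methods. The headers name featureCounts alone, and the deposited counts were used as they are. Genes were named through RefSeq (6047 of 7127 matched by systematic name).

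Genes with at least 75 counts in every library were fitted over all 42 libraries by edgeR 4.0.16 (R 4.3.3; TMM scaling, quasi-likelihood test, Benjamini-Hochberg adjustment over all tested genes, adjusted p under 0.05). RPKM are counts divided by TMM-scaled library size and annotated gene length, and log2 values of them had 0.5 added. Samples were grouped by the time in their labels. Precision follows depth, with 4339150 to 31908031 counts per library, and p-values measure the spread between libraries, which the labels call biological repeats. Motifs were searched in the RefSeq R64 genome, where 5985 of 5989 protein-coding genes had a start and a stop codon at the files' coordinates.

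The alternatives were DESeq2 1.42.0, other scalings, filters and counted regions, the library set or its slope as a term, steep libraries only, 6 libraries at 0 h, replicate blocks and each later library left out. The members and lists were chosen with earlier results of these data known. Named genes were, by rule, up to 6 largest rises and falls at each time against 0 h, the 3 highest and 3 lowest levels per subunit at 0 h, genes with an intron, a same-strand overlap or low counts, MRP8, up to 3 rises and falls per list of other mitochondrial translation genes, and the 3 highest and 3 lowest differences between library sets. Genes named beyond it were chosen after their values were seen. The edgeR script was tested on simulated data.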

Additional observations from a re-analysis of the deposited data

Results flagged for a closer look

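In 20 of 81 groups of 6 libraries examined (27 values at 3 times), 1 library lay apart from the others by more than Dixon's 95% limit. That limit gives about 1 in 20 by chance for independent groups chosen without regard to their values. Here the groups share libraries, and some genes were named for their rise or their difference between library sets, so this rate does not apply. Of the 20, 18 lay in the flat libraries 2 h replicate 1 and 6 h replicate 2, and the part of the length slope in them was not tested.

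In 2 h replicate 1, the only flat library at its time, 7 genes were higher than in the other 5 libraries. These were MRPS16 at 424 RPKM, MRPL33 at 299, MRP20 at 251, MRPL36 at 233, MRPL28 at 144, MRPL44 at 127 and RSM25 at 90.2. Among them RSM25 lay farthest from its neighbour, with 0.857 of the range.

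In 6 h replicate 2 the small subunit exceeded the large one by 0.037 in mean log2 RPKM, the lowest value at its time. The same library held the highest 6 h value of 10 genes, with MRPS12 at 857 RPKM, MRPS16 at 684, MRPL33 at 580, RSM19 at 459, MRPS18 at 440.7, MRPL39 at 427, MRPL28 at 296, MRPS9 at 210, MRPL19 at 175 and RSM25 at 156. For MRPS9 the levels at 0 h were 90.9 to 116 RPKM in flat and 85.0 to 128 in steep libraries.

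The remaining 2 values were those of RSM22, the longest of the genes, at 69.0 RPKM in 2 h replicate 4 and 74.1 in 4 h replicate 3, both steep libraries and both the highest of their time.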

How the results depend on the processing

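Across 15 alternatives and 18 single libraries left out, the count of higher genes at 6 h was 43 to 66, and 0 genes were lower in any comparison. Of 990 values for 30 single-gene changes 941 kept their side of the threshold, 36 no longer passed and 13 newly passed. The 941 include changes of sign where neither fit passed, as for MRPL33 at 6 h (0.25 over all libraries, as low as -0.29 with a library left out). Direction changed in 0 values where either fit passed. At 4 h against 0 h (9 higher) the count was 21 with library totals, 31 with the set as a term, 37 in steep libraries, 41 with the slope as a numeric term, 42 with the length trend removed, 1 with 6 libraries at 0 h, and 5 to 10 with single libraries left out. The median change at 4 h was 0.17 with library totals, 0.17 with the set as a term, 0.17 in steep libraries, 0.22 with the numeric slope and 0.23 with the length trend removed. With library totals the median over the whole gene set was itself 0.11 at 6 h and 0.10 at 4 h. At 2 h the numeric slope gave 1 higher gene. From 2 h to 4 h (1 higher) the count was 0 with library totals, with no filter, with filterByExpr and with 6 libraries at 0 h, 8 with the set as a term, 10 in steep libraries, 14 with the numeric slope, 7 with the length trend removed, and 0 to 1 with single libraries left out. From 4 h to 6 h (19 higher) it was 36 with the numeric slope, 4 with 6 libraries at 0 h, and 5 to 34 with single libraries left out. Beyond what their construction shows (fewer samples, another scaling), the cause was not tested. Counts in this section are given without the share over all tested genes, which also moved with the setting. Higher at 4 h against 0 h were 17.7% of all tested genes over all libraries, 23.3% in steep libraries and 3.62% with 6 libraries at 0 h. The counts therefore describe the fits and are not read as particular to these genes.

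Replicate numbers of the titles did not pair the libraries: 16 of 36 pairs had a correlation of deviations above 0.1 (median 0.07), 7 of 24 libraries were closest to their own number, and a replicate block on them gave 48 higher genes at 6 h, 1 at 4 h, 0 from 2 h to 4 h and 4 from 4 h to 6 h, with small minus large at 0.14. Running numbers in the headers gave 27 of 36 pairs above 0.1 (median 0.33) and 15 of 24 libraries. A replicate block on them gave 57 higher genes at 6 h, now with MRPL1 (0.34) and MRP10 (0.47), 5 at 4 h, without MRPL22, MRPS5, MRP7 and MRPL24 (adjusted p 0.0677 to 0.13), and 0 from 2 h to 4 h (MRP7 0.064). With the set as a term, chosen like the length trend after seeing the data, this block gave 62, 28 and 10, with a median of 0.23 at 4 h.

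Each later time has 6 libraries, at 6 h only 4 steep and 2 flat, and changes within their spread cannot be detected. MRP35 had the lowest count, 67 in a library.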

Other observations

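PUF3 (YLL013C) itself, named after its values were seen, rose from a mean of 21.8 RPKM at 0 h to 40.4 at 6 h, with a log2 change of 0.89 (standard error 0.17, edgeR adjusted p = 5.31e-05), and was higher at 4 h by 0.81 (adjusted p = 0.000582). With the library set as a term these changes were 0.86 (adjusted p = 6.28e-09) and 0.60 (adjusted p = 7.20e-05).

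MRPL44 (YMR225C, mL53) is the only one of the 67 genes with an annotated intron, of 147 bases. Intron reads were 6 to 70 per library at 0 h (median 20.0) and 14 to 44 at 6 h (median 29.0). The splice ratio, 1 minus intron over exon reads per base, was 0.899 ± 0.0325 (SD, n = 24) at 0 h, 0.895 ± 0.0448 (n = 6) at 2 h, 0.889 ± 0.0465 (n = 6) at 4 h and 0.915 ± 0.0265 (n = 6) at 6 h. These means lay within 1 SD of each other.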
